A study of Homo sapiens with 41 samples.

Results

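The 9 genes for enzymes of serine synthesis and folate-bound one-carbon metabolism studied here, of 58721 genes in the count table, were followed in T98G cells, a human glioblastoma line, after serum was given back. They are PHGDH, PSAT1 and PSPH (serine synthesis), SHMT1 and MTHFD1 (cytosolic one-carbon enzymes), and SHMT2, MTHFD1L, MTHFD2 and ALDH1L2 (mitochondrial one-carbon enzymes). They were chosen by name, with earlier results of these data known, and their Ensembl identifiers were matched to GENCODE symbols. The cells were kept for 72 h without serum and then received medium with 20% fetal calf serum. The 0 min sample was lysed without stimulation, and the others followed in steps of 10 min until 400 min. Every one of the 41 samples gave 1 library of total RNA depleted of ribosomal RNA, all from the 1 cell line, and no time point has a replicate. The spread about a smooth curve through the 41 libraries therefore stands in for replicate error.

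Serine is made from a phosphoglycerate of glycolysis by PHGDH, which oxidizes it, PSAT1, which adds an amino group taken from glutamate, and PSPH, which removes the phosphate. SHMT1 in the cytosol and SHMT2 in mitochondria convert serine to glycine and load the released carbon unit onto tetrahydrofolate. In mitochondria MTHFD2 oxidizes that unit and MTHFD1L releases it as formate, whereas ALDH1L2 burns it to carbon dioxide. In the cytosol the single protein of MTHFD1 joins formate to tetrahydrofolate and interconverts the folate forms used to build purines and thymidylate. ATF4, a transcription factor of the amino acid and stress response, and MYC are known activators of several of these genes.

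The libraries held 18206982 to 64948114 counts, and 21629 genes passed the filter on low counts (over 10 counts in 1 library and over 2 in 3 consecutive libraries). The serum response was present: FOS, EGR1 and IER2, immediate early genes, all peaked at 30 min, at normalized counts of 16477, 4832 and 4498. The line markers VIM, CD44 and FN1 were abundant, with normalized counts of at least 34424, 13751 and 117366 in every library, and NES was low (highest 61.7). The astrocyte markers GFAP, S100B and AQP4 did not pass the filter, and SLC1A3 fell to 251 at 400 min, against 618 at 0 min. The summed normalized count of 13 markers of other brain and blood cells was 477 to 834, most of it from SNAP25, and 60.3 to 101 for the other 12. CDH5 was called higher at 400 min against a library with 0 counts at 0 min, and its highest normalized count was 12.6. The marker sum without SNAP25 was 60.3 to 78.7 in the last 4 libraries (370 to 400 min), against 79.9 to 83.0 in the first 4 (0 to 30 min). SNAP25 itself was higher at 120 min (log2 change 0.63 ± 0.10, adjusted p = 1.0e-06) and 240 min (0.37 ± 0.09, adjusted p = 7.4e-04) than at 0 min and was not called at 400 min (-0.14 ± 0.10), and the part of such cells in the results was not tested. These bulk values cannot tell a change in RNA per cell apart from a change in the number of cells that hold it.

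In all, 8 of the 9 genes passed the filter. At 400 min 6 of these 8 genes were higher than at 0 min, 1 was lower and 1 was not called (adjusted p below 0.01, edgeR). Over all tested genes 24.2% were called higher and 22.4% lower at that time. The genes that rose most were MTHFD2 (7.03-fold), PSAT1 (5.45-fold) and MTHFD1L (4.37-fold), with smaller rises of PHGDH (1.63-fold), SHMT2 (1.49-fold) and PSPH (1.37-fold). SHMT1 fell to 0.527 of its 0 min level. Without the 0 min library the number called higher at 400 min was 3: MTHFD2, PSAT1 and MTHFD1L kept their calls, and PHGDH, SHMT2 and PSPH lost theirs. The start of the curve was then extrapolated back over 10 min, here and in every value given without that library, so these values do not rest on a measured 0 min level. The median log2 change of the 8 genes was 0.64, beside -0.0042 for all tested genes. ALDH1L2 was near 0 throughout, with 29 counts in all 41 libraries together.

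The plot of normalized counts by library shows these 3 kinds of course.

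**Figure D1:**
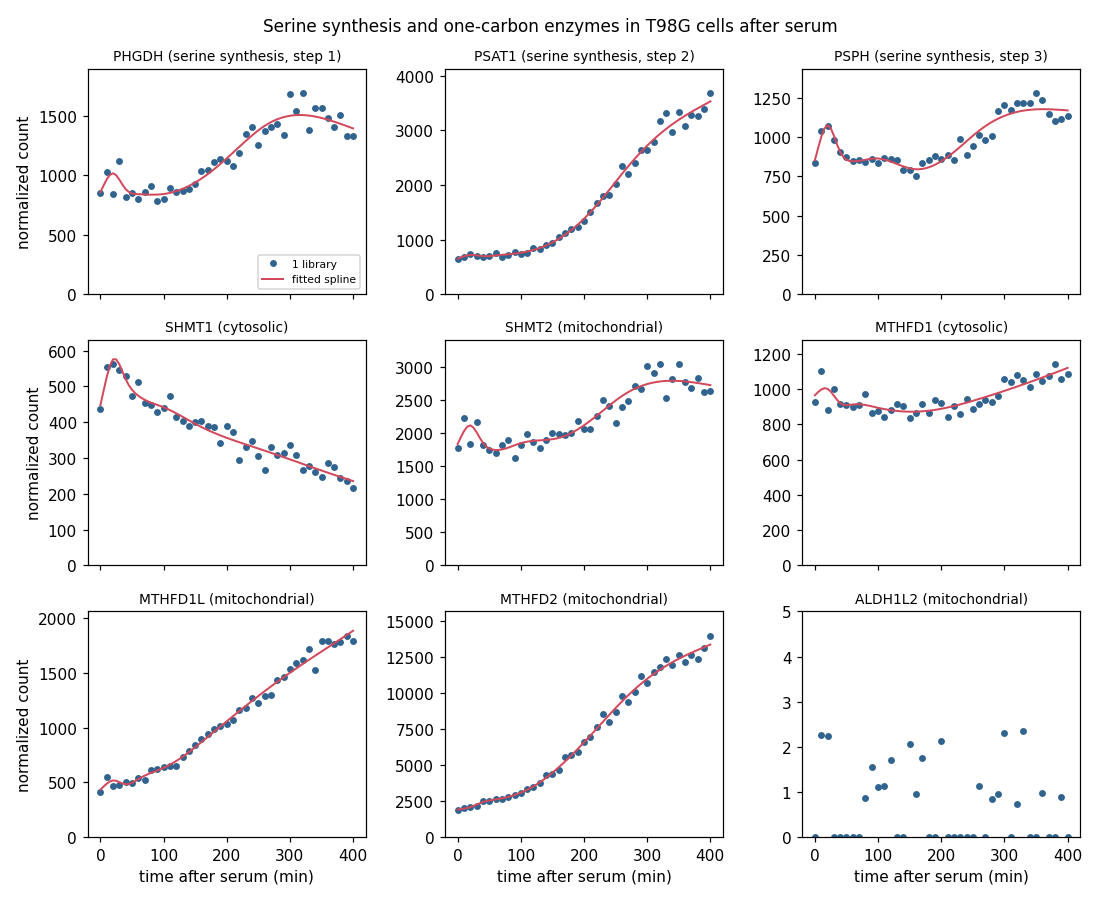
Normalized counts (vertical axes, starting at 0, each gene on its own scale) of the 9 enzyme genes against time after serum in min. Points are single libraries and lines the fitted spline; MTHFD2, PSAT1 and MTHFD1L had their lowest library at 0 min, SHMT1 had its lowest at 400 min, and ALDH1L2 did not exceed 2.36.

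MTHFD2 (chromosome 2, 74186172 to 74217565, plus strand), the mitochondrial methylenetetrahydrofolate dehydrogenase, had a lowest normalized count of 1886 at 0 min, a median of 6577 and a highest of 13978 at 400 min. Its last 4 libraries held 12336 to 13978 and its first 4 held 1886 to 2166, with no overlap. It was the first of the 8 genes to be called. Its log2 change was 0.24 ± 0.07 (SE) at 30 min (adjusted p = 0.035, not called), 0.45 ± 0.06 at 60 min (adjusted p = 1.2e-07), 0.89 ± 0.06 at 120 min, 2.16 ± 0.05 at 240 min and 2.81 ± 0.06 at 400 min (adjusted p = 2.0e-33, edgeR). The rise went on late, by 1.27 ± 0.03 between 120 and 240 min and by 0.66 ± 0.04 between 240 and 400 min. Without the 0 min library the change at 60 min was 0.37 (adjusted p = 0.40) and that at 400 min 2.73 (adjusted p = 3.2e-17). With spike-in size factors the 60 min value was 0.22 (adjusted p = 0.63).

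MTHFD1L (chromosome 6, 150865679 to 151101887, plus strand), the mitochondrial formate-releasing synthetase, ran from a lowest library of 407 normalized counts at 0 min through a median of 1029 to a highest of 1842 at 390 min. The last 4 libraries held 1766 to 1842 and its first 4 held 407 to 553. The log2 change was 0.29 ± 0.08 at 60 min (adjusted p = 0.018, not called), 0.69 ± 0.08 at 120 min (adjusted p = 6.4e-09), 1.53 ± 0.08 at 240 min and 2.13 ± 0.08 at 400 min (adjusted p = 1.9e-24). For this gene the 0 min library lay below the curve (log2 deviation -0.09) and the 10 min library farther above it (0.18). Without the 0 min library the change was 0.06 at 120 min (adjusted p = 0.94) and 1.49 at 400 min (adjusted p = 1.7e-07). With spike-in size factors the change at 120 min was 0.70 (adjusted p = 0.017). Without the 10 min library, which held 553 normalized counts, the change at 60 min was 0.39 and was called (adjusted p = 5.0e-04), as it was at every second time point (0.45, adjusted p = 0.0032) and without the 4 libraries farthest from the curves (0.31, adjusted p = 0.0095).

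PSAT1 (chromosome 9, 78297125 to 78330093, plus strand), the aminotransferase of serine synthesis, had a lowest normalized count of 650.5 at 0 min, a median of 1334 and a highest of 3689 at 400 min. Its last 4 libraries held 3256 to 3689 and its first 4 held 650.5 to 741. It was first called at 120 min, with a log2 change of 0.13 ± 0.08 at 60 min (adjusted p = 0.38), 0.32 ± 0.07 at 120 min (adjusted p = 9.2e-04), 1.56 ± 0.07 at 240 min and 2.44 ± 0.08 at 400 min (adjusted p = 8.2e-28, edgeR). The early call was the weakest. At 120 min the change was 0.26 with total library counts (adjusted p = 0.028), 0.31 with spike-in size factors (adjusted p = 0.49), 0.35 without the 0 min library (adjusted p = 0.45) and 0.31 at every second time point (adjusted p = 0.022). At 400 min it was 2.48 without the 0 min library (adjusted p = 1.8e-12).

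The RefSeq promoter table (GRCh38.p14) held 6 of the 9 genes: PHGDH, PSAT1, SHMT1, MTHFD1, MTHFD1L and MTHFD2. Each window runs from 250 bases before to 50 bases after an annotated start. The 3 motifs were searched on both strands: TGATGNAA, the core of the C/EBP-ATF response element that ATF4 binds (in 3.62% of 35116 windows), the E-box CACGTG that MYC binds (7.26%) and the CRE TGACGTCA (1.85%). The windows of the 3 genes that rose most are shown beside that of MTHFD1, which was not called at 400 min, with motif matches in capitals. MTHFD1L has 4 windows in the table, of which 3 overlap and hold the same 2 matches, and the one printed has the latest start of these 3.
MTHFD2 (chr2:74198365-74198664, plus strand): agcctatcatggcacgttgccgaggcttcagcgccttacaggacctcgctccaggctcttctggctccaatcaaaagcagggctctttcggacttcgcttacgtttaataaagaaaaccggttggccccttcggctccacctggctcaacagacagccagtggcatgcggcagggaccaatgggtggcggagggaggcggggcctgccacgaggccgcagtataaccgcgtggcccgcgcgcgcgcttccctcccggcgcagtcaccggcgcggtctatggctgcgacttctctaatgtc
MTHFD1L (chr6:150866236-150866535, plus strand): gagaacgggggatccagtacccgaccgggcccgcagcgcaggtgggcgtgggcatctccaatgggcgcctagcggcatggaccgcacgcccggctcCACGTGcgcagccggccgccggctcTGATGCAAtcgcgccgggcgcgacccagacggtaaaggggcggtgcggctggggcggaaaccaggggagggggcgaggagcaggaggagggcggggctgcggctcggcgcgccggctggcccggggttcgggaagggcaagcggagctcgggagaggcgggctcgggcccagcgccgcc
PSAT1 (chr9:78296875-78297174, plus strand): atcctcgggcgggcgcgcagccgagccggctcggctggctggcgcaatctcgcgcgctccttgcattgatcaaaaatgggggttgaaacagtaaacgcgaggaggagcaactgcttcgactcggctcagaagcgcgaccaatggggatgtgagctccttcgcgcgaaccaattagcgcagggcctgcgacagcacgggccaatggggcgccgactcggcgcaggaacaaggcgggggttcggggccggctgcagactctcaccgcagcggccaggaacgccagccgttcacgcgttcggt
MTHFD1 (chr14:64388103-64388402, plus strand): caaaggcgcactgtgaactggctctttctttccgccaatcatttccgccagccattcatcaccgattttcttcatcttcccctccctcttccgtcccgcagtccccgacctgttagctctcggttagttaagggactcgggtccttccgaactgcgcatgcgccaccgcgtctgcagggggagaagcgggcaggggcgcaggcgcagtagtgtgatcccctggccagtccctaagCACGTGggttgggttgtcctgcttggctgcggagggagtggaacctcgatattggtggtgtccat
The MTHFD1L window held an E-box at position -154 and the element core at position -129 from the start, the second with C at the free letter. The MTHFD1 window held an E-box at position -15. The windows of MTHFD2 and PSAT1, like those of PHGDH and SHMT1, held none of the 3 motifs. Among the 6 genes with a window, no match in these 300 bases was common to all that rose or to the others. PSPH and SHMT2, which also rose, had no window. A match is a run of letters only, and binding was not measured.

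PHGDH (chromosome 1, 119648411 to 119744218, plus strand), the dehydrogenase that opens serine synthesis, had a lowest normalized count of 779 at 90 min, a median of 1122 and a highest of 1691 at 320 min. Its last 4 libraries held 1326 to 1504 and its first 4 held 842 to 1122, again without overlap. It was not called up to 120 min and was higher afterwards. The log2 change was 0.02 ± 0.11 at 120 min (adjusted p = 0.94), 0.64 ± 0.10 at 240 min (adjusted p = 1.8e-06) and 0.70 ± 0.11 at 400 min (adjusted p = 1.2e-06). Most of the rise fell between 120 and 240 min (0.62 ± 0.06), and the change between 240 and 400 min was 0.06 ± 0.07 (adjusted p = 0.51, edgeR). Without the 0 min library the change was 0.51 at 240 min (adjusted p = 0.30) and 0.57 at 400 min (adjusted p = 0.18). The last 4 libraries against the first 4, which does not rest on 1 library, gave 0.53 (adjusted p = 1.8e-04).

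PSPH (chromosome 7, 56011051 to 56051604, minus strand), the phosphatase of the final step, moved least of the serine synthesis genes, with a lowest normalized count of 750.4 at 160 min, a median of 909 and a highest of 1283 at 350 min. It was above its 0 min count of 838 in the 10, 20 and 30 min libraries (1038, 1071 and 982), lay lower in the middle of the course and was high again from 290 min. The log2 change was 0.19 ± 0.08 at 240 min (adjusted p = 0.035, not called) and 0.46 ± 0.08 at 400 min (adjusted p = 1.1e-05). That call depended on the start. The last 4 libraries (1104 to 1149) lay above the first 4 (838 to 1071), but their difference was 0.20 (adjusted p = 0.038), and the change at 400 min was 0.26 without the 0 min library (adjusted p = 0.45), 0.15 with evenly spaced knots (adjusted p = 0.11) and 0.50 with spike-in size factors (adjusted p = 0.059). The difference between 120 and 240 min, 0.21 ± 0.04 (adjusted p = 1.1e-04), and that between 240 and 400 min, 0.27 ± 0.05 (adjusted p = 4.3e-05), do not use the 0 min library as their reference. Its annotated pseudogene PSPHP1, also on chromosome 7, held 70.5 to 125 normalized counts, and its mean was 10.0% of that of PSPH. Reads that fit several places were counted for each gene they touch, so part of each gene's count may belong to the other.

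SHMT2 (chromosome 12, 57229573 to 57234935, plus strand), the mitochondrial serine hydroxymethyltransferase, had a lowest normalized count of 1629 at 90 min, a median of 2170.4 and a highest of 3047 at 320 min. Counts in the last 4 libraries were 2628 to 2836, against 1776 to 2236 in the first 4. Like PHGDH it was first called at 240 min, with a log2 change of 0.04 ± 0.10 at 120 min (adjusted p = 0.83), 0.40 ± 0.09 at 240 min (adjusted p = 4.0e-04) and 0.57 ± 0.10 at 400 min (adjusted p = 6.5e-06). Without the 0 min library these were 0.03 at 240 min (adjusted p = 0.96) and 0.21 at 400 min (adjusted p = 0.64), and with spike-in size factors 0.45 (adjusted p = 0.067) and 0.62 (adjusted p = 0.014). The 240 min value was 0.21 with evenly spaced knots (adjusted p = 0.022). The last 4 libraries against the first 4 gave 0.43 (adjusted p = 3.3e-04), and the difference between 120 and 240 min was 0.36 ± 0.05 (adjusted p = 1.5e-07).

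SHMT1 (chromosome 17, 18327860 to 18363563, minus strand), the cytosolic serine hydroxymethyltransferase, was the only one of the 8 genes called lower at 400 min. It had a highest normalized count of 562 at 20 min, a median of 372 and a lowest of 217 at 400 min. Its last 4 libraries held 217 to 276 and its first 4 held 437 to 562, with no overlap. The log2 change was -0.43 ± 0.10 at 240 min (adjusted p = 2.6e-04) and -0.92 ± 0.11 at 400 min (adjusted p = 9.3e-10, edgeR). The 0 min library was the lowest of the first 4, and without it the change was -0.69 at 240 min (adjusted p = 0.093) and -1.19 at 400 min (adjusted p = 0.0013). The 240 min value was -0.38 with spike-in size factors (adjusted p = 0.089) and -0.40 at every second time point (adjusted p = 0.012). Between 240 and 400 min SHMT1 fell by 0.50 on the log2 scale (SE 0.07).

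MTHFD1 (chromosome 14, 64388031 to 64463457, plus strand), the cytosolic trifunctional enzyme, had a lowest normalized count of 836 at 150 min, a median of 923 and a highest of 1139 at 380 min. Its last 4 libraries (1054 to 1139) overlapped its first 4 (882 to 1099). The log2 change at 400 min was 0.22 ± 0.08, with a 95% interval of 0.05 to 0.38 (adjusted p = 0.024, not called). It was 0.28 without the 10 min library (adjusted p = 0.0030) and 0.25 without the 4 libraries farthest from the curves (adjusted p = 0.0024), and both pass the threshold. Between 240 and 400 min it rose by 0.28 ± 0.05 (adjusted p = 1.5e-05). Its profile was thus not flat, and the test of all spline terms together called it as it called the other 7 tested members (adjusted p = 3.8e-08), beside 75.5% of all tested genes.

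ALDH1L2 (chromosome 12, 105019784 to 105107643, minus strand), the mitochondrial formyltetrahydrofolate dehydrogenase, had no count in 22 of 41 libraries and at most 3 in any. It did not pass the filter and no change was computed. Its cytosolic paralog ALDH1L1 held 54 counts in the 41 libraries together and did not pass either.

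Set side by side by time, none of the 8 tested genes was called at 30 min, beside 1.71% of all tested genes called higher and 0.342% called lower. At 60 min 1 was higher (MTHFD2) and none lower, beside 5.15% and 1.23%. At 120 min 3 were higher (MTHFD2, MTHFD1L and PSAT1) and none lower, beside 13.6% and 6.75%. At 240 min 5 were higher, with PHGDH and SHMT2 added, and SHMT1 was lower, beside 21.6% and 18.5%. At 400 min PSPH was added to the higher ones. Within the course, 6 were higher and 1 lower at 240 min than at 120 min (18.0% and 18.1% of all tested genes), and 5 were higher and 1 lower at 400 min than at 240 min (14.8% and 14.5%). From 60 min on the share of the 8 genes called higher was above that of all tested genes, and no test of the list as a whole was made. The genes were chosen with earlier results of these data known, so this comparison cannot decide whether the list stands out. At 60 min the only gene called higher was MTHFD2, and none of the 8 was called higher at that time without the 0 min library or with spike-in size factors. All contrasts with 0 min share that 1 library, which was below the 10 min library for all 8 genes (a median log2 difference of 0.29) and for 54.1% of all tested genes. The windows of 4 libraries depend less on the 0 min library, which is 1 of the first 4. The last 4 lay wholly above the first 4 in 6 of the 8 genes and wholly below in SHMT1, beside 28.4% of all tested genes in each direction.

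**Figure D2:**
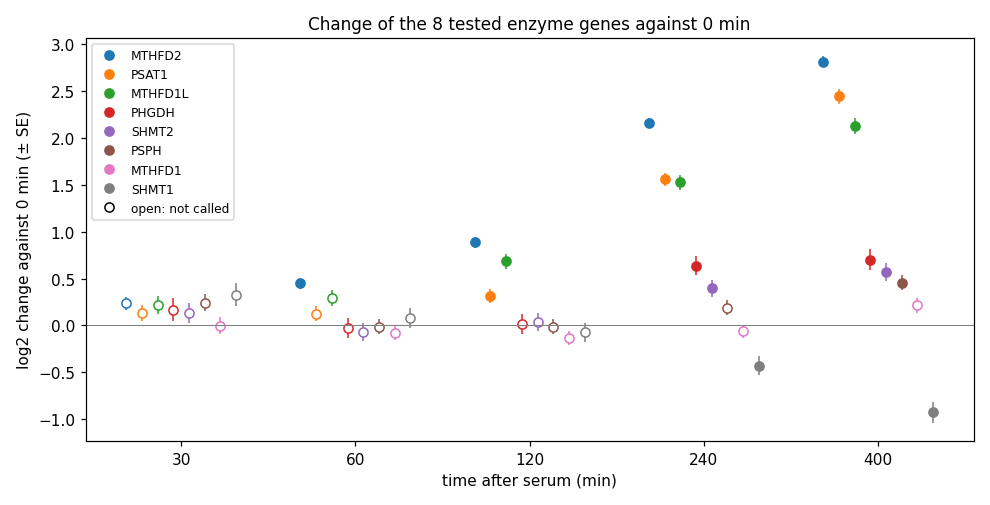
Log2 change against 0 min (vertical axis) of the 8 tested enzyme genes at 30, 60, 120, 240 and 400 min of serum (horizontal axis), with bars for the SE from the spline fit. Filled points were called at an adjusted p below 0.01 and open points were not; MTHFD2, PSAT1 and MTHFD1L separate from the others by 240 min and SHMT1 lies below 0 from 120 min on.

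The profiles of all 8 tested genes were autocorrelated, meaning that neighbouring libraries resembled each other (Ljung-Box test at lag 1, adjusted p of 6.9e-05 for MTHFD1 and lower for the others), as were those of 60.9% of all tested genes. The running mean of 3 libraries passed the midpoint of the change at 221 min for MTHFD2, 222 min for MTHFD1L and 253 min for PSAT1, and other ways of smoothing or scaling gave 218 to 222, 216 to 222 and 249 to 253 min. The midpoints of MTHFD2 and MTHFD1L therefore could not be told apart at a sampling step of 10 min. That of PSAT1 was later under each of these settings, which reuse the same libraries and give no error of a midpoint. These are midpoints of exon counts. The paper proposes that mature mRNA may poorly reflect induction times, above all in long genes and for stable transcripts. Half-lives of these transcripts were not estimated here. MTHFD1L spans 236.209 kb, MTHFD2 31.394 kb and PSAT1 32.969 kb, and the order of gene activation was not tested. The midpoint was 228 min for PHGDH (208 to 230), 268 min for SHMT2 (214 to 268), 285 min for PSPH (252 to 307) and 204 min for SHMT1 (196 to 255), and the order of these 4 changed with the setting. MTHFD2, PSAT1 and MTHFD1L were near or at their highest at 400 min, so their midpoints are those of the part of the rise that was sampled.

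Ratios of counts within a library do not depend on size factors, and they set the mitochondrial enzymes against their cytosolic counterparts. The count of SHMT2 was 12.2 times that of SHMT1 at 400 min, against 4.06 times at 0 min, and the log2 ratio changed by 1.50 (95% interval 1.22 to 1.78, n = 41 libraries). MTHFD2 had 12.9 times the count of MTHFD1 at 400 min, against 2.03 times at 0 min, a log2 change of 2.60 (2.40 to 2.80). MTHFD1L had 1.66 times the count of MTHFD1 at 400 min, against 0.439 times at 0 min, a change of 1.92 (1.76 to 2.07). All 3 intervals lie above 0, so each mitochondrial gene gained on its cytosolic counterpart. MTHFD2 also gained on its own mitochondrial paralog MTHFD2L, by 2.30 (2.02 to 2.58). The size of this gain depends on the 0 min library, whose ratio of 4.47 was the lowest of the first 4 (4.47 to 7.42). The last 4 libraries held ratios of 21.53 to 24.45. Within serine synthesis PSAT1 gained on PHGDH by 1.75 (1.45 to 2.05), with count ratios of 2.17 to 2.78 in the last 4 libraries, against 0.621 to 0.881 in the first 4. The PSPH to PHGDH ratio changed by -0.24, with an interval of -0.49 to 0.02 that includes 0. A count ratio also holds the lengths of the 2 transcripts, so only its change over time compares the genes.

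**Figure D3:**
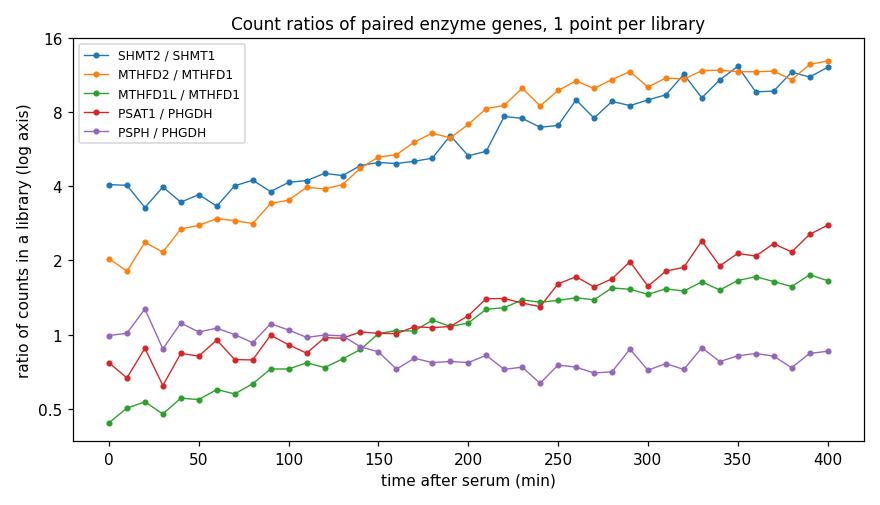
Ratio of counts of 2 enzyme genes in the same library (vertical log axis, no unit) against time after serum in min, 1 point per library. The MTHFD2 to MTHFD1 and SHMT2 to SHMT1 ratios reach 12.9 and 12.2 at 400 min, the PSAT1 to PHGDH and MTHFD1L to MTHFD1 ratios pass 1 during the course, and the PSPH to PHGDH ratio ends at 0.856.

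Levels were compared between genes as normalized counts per kb of annotated exon. In the first 4 libraries SHMT2 was highest (387 to 487 per kb), followed by PSPH (304 to 388), whose range just reached that of SHMT2, and PSAT1 (295 to 336), whose range overlaps that of PSPH, then MTHFD2 (165 to 189), then PHGDH (91.7 to 122) and MTHFD1L (83.2 to 113), which overlap, and then SHMT1 (62.3 to 80.1) and MTHFD1 (50.8 to 63.3), which overlap narrowly. In the last 4 PSAT1 was highest (1476 to 1672), followed by MTHFD2 (1078 to 1222), SHMT2 (572 to 618), PSPH (400 to 416), MTHFD1L (361 to 377), PHGDH (144 to 164), MTHFD1 (60.7 to 65.7) and SHMT1 (30.9 to 39.4), with no overlap between neighbours. This order depends on the length used, because the union of exons includes long retained introns (17.4 kb for MTHFD1). Per kb of the canonical transcript, a length chosen after the values were seen, MTHFD2 (2802 to 3175) was above PSAT1 (1476 to 1672) and SHMT2 (1218 to 1315) in the last 4 libraries, and PHGDH (711 to 806) was above PSPH (559 to 582). SHMT2 was highest in the first 4 libraries and SHMT1 lowest of the tested genes in the last 4 by both lengths.

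Over the 41 libraries the log2 courses of MTHFD2 and MTHFD1L were the most alike of the members (Pearson r = 0.99), followed by PSAT1 with MTHFD2 (0.98) and with MTHFD1L (0.97), and PHGDH with SHMT2 (0.97). SHMT1 ran against the other 7, with r of -0.53 with MTHFD1 to -0.94 with MTHFD2. These are descriptions of courses that share libraries and a trend in time. PHGDH and SHMT2 also left their curves in the same libraries (r of the deviations 0.84, n = 41). MTHFD1 shared these deviations with both (r = 0.63 with PHGDH and 0.57 with SHMT2). On the log2 scale the libraries of 20, 90, 250 and 300 min deviated by -0.27, -0.10, -0.14 and 0.16 for PHGDH and by -0.20, -0.16, -0.21 and 0.14 for SHMT2. These 4 libraries are the farthest from the curves over all genes, and the part of the library in these deviations was not tested. Among 11145 protein-coding genes with a mean normalized count of at least 100, the courses most like each member were those of ALPK2 and IL7R for MTHFD2 (r = 0.9950 and 0.9949), RAN and BZW2 for MTHFD1L (0.99 each), GARS1 and ASNS for PSAT1 (0.9956 and 0.9953), TNIP2 and CARS1 for PHGDH (0.98 and 0.97), CLPTM1L and IMPDH1 for SHMT2 (0.98 and 0.97), ARHGEF2 and PCK2 for PSPH (0.95 and 0.94), GLUL and TEF for SHMT1 (0.97 each) and HIP1 and SEPTIN8 for MTHFD1 (0.89 and 0.88).

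Among 18 of 19 other folate genes that passed the filter, 7 were higher and 2 lower at 400 min than at 0 min, with a median log2 change of 0.14. Over all tested genes, 24.2% were higher and 22.4% lower in this contrast, with a median of -0.0042, and the counts of the lists that follow are to be read against these shares. These lists too were chosen with earlier results of these data known. SLC25A32, the carrier that brings folate into mitochondria, rose early: its normalized counts were 1294 before serum, 3579 after 120 min and 7369.6 after 400 min, with a log2 change of 0.83 ± 0.10 at 60 min (adjusted p = 1.1e-08) and 2.36 ± 0.10 at 400 min (adjusted p = 4.2e-23). ATIC and GART, which use formyl-tetrahydrofolate in purine synthesis, rose 2.15-fold and 1.97-fold (SE 0.13 and 0.06 on the log2 scale). FTCD, a folate enzyme of histidine breakdown, fell by 1.47 ± 0.39 on the log2 scale from low counts (2.94 normalized counts at 400 min, against 27.0 at 0 min). MTHFD2L was higher by 0.51 ± 0.14 (adjusted p = 0.0024), and TYMS, thymidylate synthase, was not called (0.14 ± 0.15). In the glycine cleavage system, which also supplies mitochondrial one-carbon units, GLDC did not pass the filter. AMT fell by 2.27 ± 0.31 on the log2 scale, also from low counts (18.6 normalized counts at 400 min, against 78.8 at 0 min). GCSH rose by 0.33 ± 0.09 and DLD was not called.

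In the methionine cycle and transsulfuration, which receive carbon units and serine, 5 of 11 tested genes were higher and 2 lower (median 0.22). MTAP, which salvages methionine, rose by 2.18 ± 0.09, CTH, which makes cysteine, by 1.996 ± 0.144 and MTRR, which keeps methionine synthase active, by 1.32 ± 0.10. MAT2B, a regulatory subunit of methionine adenosyltransferase, fell by 0.75 ± 0.06 on the log2 scale. MAT2A of the same enzyme was higher by 0.64 ± 0.06 (adjusted p = 4.9e-13, edgeR). Of 11 tested users of serine and glycine 3 were higher and 4 lower (median -0.05). PTDSS1, which makes phosphatidylserine, rose by 0.67 ± 0.07, and GCLC of glutathione synthesis fell by 1.56 ± 0.11, SPTLC3 by 0.77 ± 0.12 and SPTSSA by 0.53 ± 0.11 on the log2 scale, and the last 2 encode parts of serine palmitoyltransferase. The core subunits of that enzyme, SPTLC1 and SPTLC2, rose by 0.52 ± 0.09 (adjusted p = 4.9e-06) and 0.45 ± 0.08 (adjusted p = 3.2e-06). Of 9 tested serine and glycine carriers 5 were higher and 2 lower (median 0.42). SLC1A4 was up by 1.35 ± 0.13 and SLC6A9 by 0.69 ± 0.14. SLC38A2 was down (-1.49 ± 0.14), as was the mitochondrial SFXN3 (-0.62 ± 0.07). The related SFXN1 was higher by 0.44 ± 0.05 (adjusted p = 4.1e-09, edgeR), and SFXN2 was not called (-0.06 ± 0.17). The 7 glycolysis genes around the start of serine synthesis showed 1 higher (BPGM, 1.13 ± 0.08), 1 lower (ENO2, -0.90 ± 0.10) and 5 not called, among them GAPDH, PGK1, PGAM1, ENO1 and PKM, with a median of 0.05.

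Of 23 tested genes listed as targets of ATF4 outside the 9 enzymes, 16 were higher and 1 lower at 400 min, beside 24.2% and 22.4% of all tested genes, and the median log2 change was 0.88. At 120 min 11 were higher and 2 lower, beside 13.6% and 6.75%. SLC7A5, an amino acid transporter, rose by 3.30 ± 0.14, STC2, a secreted glycoprotein, by 3.01 ± 0.07, ASNS, asparagine synthetase, by 2.67 ± 0.08 and CHAC1, which degrades glutathione, by 2.08 ± 0.27. Their later courses differed: ASNS was highest at 400 min, as PSAT1 and MTHFD2 were, whereas CHAC1 was highest at 240 min (934 normalized counts) and fell to 178 at 400 min. At 400 min 10 of the 23 were higher and 9 lower than at 240 min, beside 14.8% and 14.5%. Among 11 tested regulators 2 were higher and 5 lower at 400 min (median -0.17). ATF4 mRNA had normalized counts of 7775 before serum, 11836 after 120 min, 17054 after 240 min and 14826 after 400 min, with a log2 change of 0.31 ± 0.06 at 60 min (adjusted p = 9.1e-05) and 0.91 ± 0.06 at 400 min. MYC was higher by 1.62 ± 0.15 at 30 min and by 2.88 ± 0.14 at 400 min, and an order in time between MYC and the enzyme genes was not tested. NFE2L2, the regulator of the oxidative stress response, fell by 1.64 ± 0.14 and EHMT2, a histone methyltransferase, by 0.99 ± 0.11 on the log2 scale. The abundance and activity of these proteins were not measured.

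**Figure D4:**
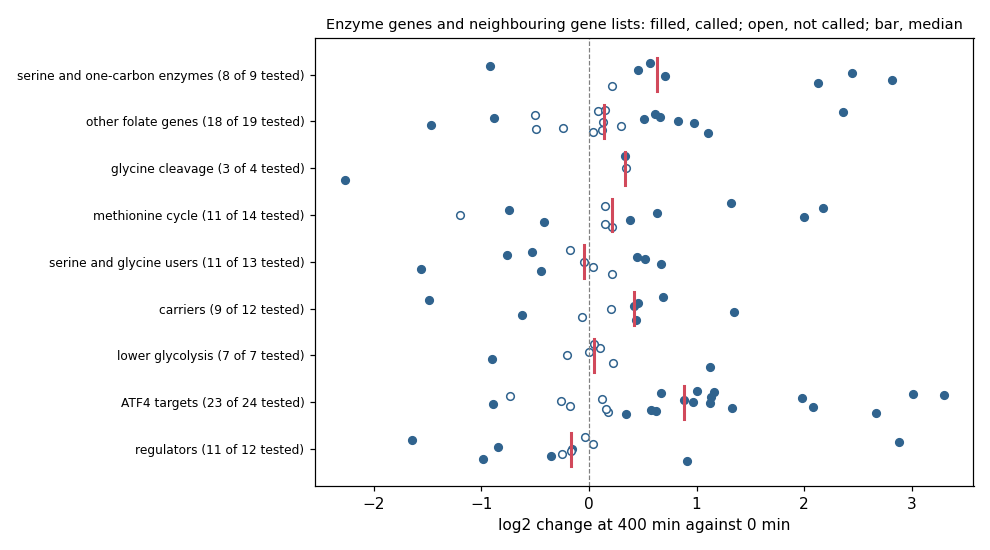
Log2 change at 400 min against 0 min (horizontal axis) of each tested gene of the 9 lists (rows). Filled points were called at an adjusted p below 0.01, open points were not, bars are list medians and the dashed line is the median of all tested genes; the enzyme genes and the ATF4 targets have the medians farthest to the right (0.64 and 0.88).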

How the data were processed

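Total RNA depleted of ribosomal RNA was sequenced with a stranded kit from 41 time points. Per the labels and the study's methods, the authors trimmed reads with cutadapt 1.11, aligned them to GRCh38 with STAR 2.5.2a and counted them per gene with featureCounts over GENCODE 29 exons, by strand, with a shared read counted for each gene it touches. They deposited these counts and, as a signal value, the normalized count: the count divided by its library's DESeq2 1.24.0 size factor (0.447 to 1.60). Recomputed factors differed by at most 2.2e-16, and both deposits held identical counts for the 41 libraries. Positions, symbols and exon lengths came from GENCODE 44 on the same genome (58207 genes matched, 99.1%), with 45 pseudoautosomal copies left out.

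In edgeR 4.0.16 (R 4.3.3) the counts were fitted by quasi-likelihood to a natural cubic spline of time (7 degrees of freedom, knots at 20, 40, 60, 100, 160 and 260 min, 33 residual degrees of freedom). Contrasts were called at a Benjamini-Hochberg adjusted p below 0.01 over 21629 genes. SEs are Wald errors of the contrasts. Log2 count ratios had 0.5 added to each count and were fitted by least squares on the same spline. These fits and the Ljung-Box test were tested on simulated data. The 9 genes and the gene lists were chosen with earlier results of these data known. Of each list, up to 4 called genes with the largest change at 400 min were named, and for each enzyme gene the 2 genes with the highest r. MTHFD2L, TYMS, DLD, GLDC, ALDH1L1, MAT2A, SPTLC1, SPTLC2, SFXN1, SFXN2, SNAP25 and the uncalled glycolysis genes were named after their values were seen. A single result is not reported here. Alternatives covered the scaling, the filter, the knots, single libraries, the tool (DESeq2 1.42.0) and the threshold.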

Additional observations from a re-analysis of the deposited data

How the results depend on the processing

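The 8 tested enzyme genes gave 40 log2 changes at 5 times. All 40 stayed on their side of the threshold with TMM factors, with no filter, with a mean count of at least 50 and with DESeq2, and a called value was reversed under none of the alternatives run. The 0 min library mattered most. Without it, the number of the 8 genes that were higher was 0 at 60 min, 1 at 120 min, and 3 at both 240 and 400 min, beside 1, 3, 5 and 6 with all libraries, and 0 were lower at 240 min, beside 1. Over all tested genes 1767 were then higher and 1134 lower at 400 min, beside 5236 and 4835 with all libraries. With spike-in size factors 0 were higher at 60 min, 1 was higher after 120 min and 4 after 400 min, 0 were lower at 240 min, and over all genes 2795 were higher and 2597 lower at 400 min. At every second time point 2 were higher at 60 min and 0 lower at 240 min. Without the 4 libraries farthest from the curves, and without the 10 min library (an alternative chosen after seeing the data), 2 were higher at 60 min. Evenly spaced knots gave 1 higher at 30 min and 2 lower at 120 min (PSPH, -0.24, and SHMT1, -0.30), and 5 degrees of freedom gave 1 higher at 30 min and 1 lower at 120 min (PSPH, -0.25). At an adjusted p below 0.05, 1 was higher at 30 min and 2 at 60 min. As a mean of the last 4 libraries minus the first 4, the log2 ratio change was 1.76 for MTHFD1L to MTHFD1 and 1.90 for MTHFD2 to MTHFD2L, and evenly spaced knots gave -0.35 for PSPH to PHGDH, with an interval that then excluded 0. The causes of these differences were not tested. No paired analysis was possible because each time point has 1 library. With 1 culture per time point, errors come from the spread about the curve, and slow drift shared by neighbouring cultures would not show in them. Small changes of PSPH and MTHFD1 are at the limit of what these libraries can show.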
